A study of Homo sapiens with 6 samples.

Results

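The S100A genes encode small calcium-binding proteins. The 9 members described here are S100A2, S100A3, S100A4, S100A6, S100A10, S100A11, S100A13, S100A14 and S100A16. They were taken by gene symbol from the array annotation with all their probes, 16 of the 48803 probes on the array, and they are 9 of the 18852 genes that have a named probe. The list was chosen by family name but with the treated and control bead signals of these same arrays known, so everything below on how these 9 genes differ between the groups is a description and carries no test.

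The data come from HEK293 cells, an established human embryonic kidney line transformed with adenovirus DNA, and so from 1 line only. In the tRA/cAMP group (3 samples) the cells spent 3 days in medium supplemented with all-trans retinoic acid and N6,2'-O-dibutyryl-cAMP. In the CNTRL group (3 samples) they spent the same 3 days in complete medium with neither agent. Retinoic acid switches on genes through nuclear receptors, and dibutyryl-cAMP enters cells and acts there as cAMP does, mainly on protein kinase A. They were given together, so their separate effects cannot be told apart, and no dose is given in the sources used here. Total RNA of each sample was hybridised as biotin-labelled cRNA to 1 Illumina bead array, and the 6 arrays lay on 1 chip with the CNTRL samples in the first positions, so that the effect of a position and that of the treatment cannot be told apart. Nothing in the labels ties the samples of a group to separate cultures, and p-values given for other genes cover only the spread among these samples, which could be technical. Between 14792 and 16103 probes per array were detected, and arrays of 1 group correlated at 0.986 to 0.990 against 0.976 to 0.981 for arrays of different groups. Of the lineage markers looked up as a check of the label, the kidney genes PAX2, PAX8, SIX2, SALL1 and CDH16 and the neuronal genes NEFM, NEFH, INA, ELAVL3, ELAVL4, DCX and SYP were detected on no array. The 4 kidney markers tested were EYA1, which fell by 1.05 on the log2 scale, GATA3, which rose by 0.94, LHX1 (0.49) and WT1 (-0.12), the last pair not called. The 4 neuronal markers tested were MAP2, which fell by 0.84, GAP43 (-0.39), NEFL (-0.14) and TUBB3 (0.07), and limma called none of these but MAP2. MAP2 was detected on 1 of the 3 tRA/cAMP arrays and GAP43 on 2, so these differences rest in part on signals below detection. Over its alternatives the MAP2 difference was -1.01 to -0.47. EYA1 was called in all 15 of its alternatives, GATA3 in 9 of 15 and MAP2 in 9 of 14.

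S100 proteins are made of a pair of EF-hands, helix-loop-helix calcium-binding motifs, and most act as dimers. Binding of calcium opens a hydrophobic face with which the dimer grips a target, such as an annexin, a cytoskeletal motor or a transcription factor; S100A10 is the exception, since its loops have lost the ability to bind calcium and it is held in the open form. Many S100 proteins have no enzymatic activity of their own, and several are also released from cells and act on surface receptors such as AGER, the receptor for advanced glycation end products. Most S100A genes lie side by side on the long arm of chromosome 1 and are expressed in different tissues.

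The raw signal is the average bead intensity of a probe on an array, and the normalised signal is that intensity after background correction and quantile normalisation, on the log2 scale, on which all differences are given as tRA/cAMP minus CNTRL. A probe was called detected on an array where its detection p was under 0.01, which corresponded to a raw signal of at least 361 to 407 on the tRA/cAMP arrays and 359 to 420 on the CNTRL arrays. A gene entered the fit if a probe of it was detected on all 3 arrays of a group, and its brightest such probe stood for it. By this rule 6 members were tested (S100A2, S100A4, S100A10, S100A11, S100A13 and S100A16), while S100A3, S100A6 and S100A14 were not. Of the 16 probes, 10 were detected on all 6 arrays and 3 on none.

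S100A4 and S100A10 were the 2 members with an adjusted p under 0.05 in the fit over all 9944 genes, both lower in tRA/cAMP cells, and 0 members were higher. Over all genes tested, 2.56% were called, 1.46% lower and 1.11% higher (limma, Benjamini-Hochberg adjusted p under 0.05), and because the members were chosen with this contrast known nothing is read from their count. In 4 of the 6 tested members all 3 tRA/cAMP arrays lay below all 3 CNTRL arrays and in 0 above, where 18.9% of all genes tested had groups that did not overlap, 9.7% wholly below and 9.2% wholly above. The median log2 difference was -0.38 over the 6 tested members and 0.00 over all genes tested. For the same reason nothing is read from the number of members without overlap or from their median. These are bulk measurements, in which fewer cells of a kind and less RNA per cell cannot be told apart.

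**Figure D1:**
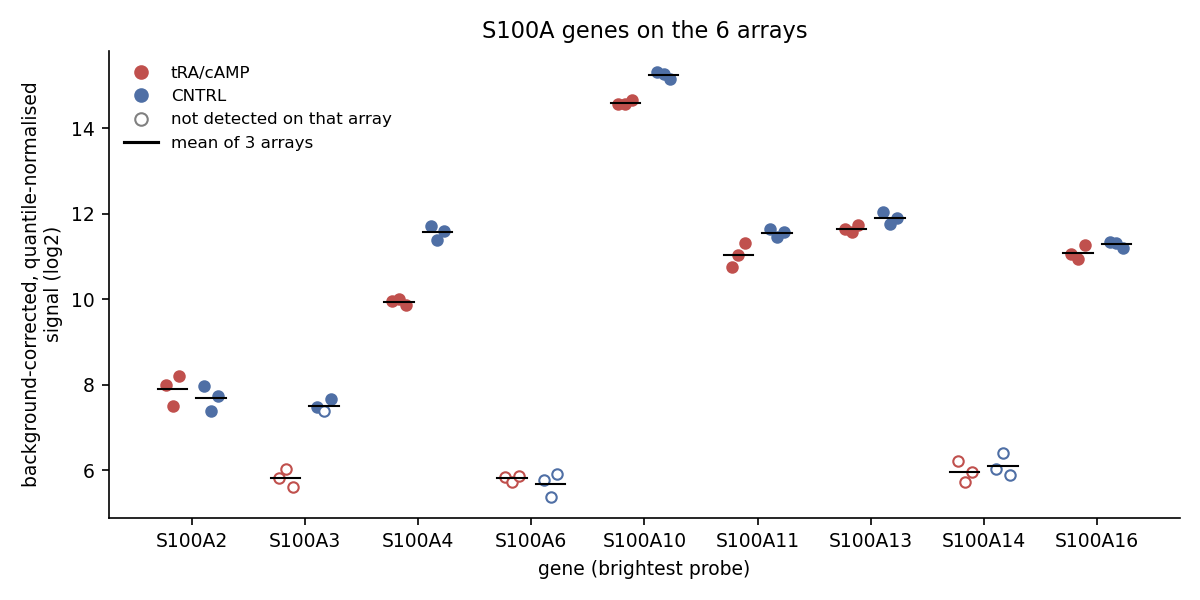
Normalised signal (log2) of the brightest probe of each of the 9 S100A genes on every array; tRA/cAMP arrays are drawn left of CNTRL arrays, open circles mark arrays on which the probe was not detected, and lines are means of 3 arrays. The group means of S100A4 differ by -1.62 and those of S100A10 by -0.65 (tRA/cAMP minus CNTRL), and S100A6 and S100A14 are open on all arrays. Heights of different genes come from different probes and are not comparable.

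The stretch of genome just before a gene's start is where its basal promoter lies, and it is shown for the tested members with the lowest differences, S100A4, S100A10 and S100A11, and for S100A3, the neighbour of S100A4, which was detected on CNTRL arrays only. The sequences are the 250 bases before the annotated start, from RefSeq on GRCh38.p14, 5′ to 3′ on the gene's own strand. Capitals mark matches to 3 short motifs: TGACG, the half-site of the cAMP response element, TGANTCA, the site of AP-1 factors, and AGGTCA, the half-site bound by retinoid and other nuclear receptors.
S100A4, chr1:153545807-153546056, minus strand: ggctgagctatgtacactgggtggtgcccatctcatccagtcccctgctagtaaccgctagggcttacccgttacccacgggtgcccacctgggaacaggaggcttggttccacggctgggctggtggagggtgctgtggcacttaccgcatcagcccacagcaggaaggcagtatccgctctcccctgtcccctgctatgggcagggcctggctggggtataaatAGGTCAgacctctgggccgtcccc
S100A3, chr1:153549259-153549508, minus strand: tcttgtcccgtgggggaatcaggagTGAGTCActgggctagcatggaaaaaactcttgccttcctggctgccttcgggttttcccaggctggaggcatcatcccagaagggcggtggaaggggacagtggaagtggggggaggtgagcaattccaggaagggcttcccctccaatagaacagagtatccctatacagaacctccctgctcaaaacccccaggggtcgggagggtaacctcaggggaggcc
S100A10, chr1:151993860-151994109, minus strand: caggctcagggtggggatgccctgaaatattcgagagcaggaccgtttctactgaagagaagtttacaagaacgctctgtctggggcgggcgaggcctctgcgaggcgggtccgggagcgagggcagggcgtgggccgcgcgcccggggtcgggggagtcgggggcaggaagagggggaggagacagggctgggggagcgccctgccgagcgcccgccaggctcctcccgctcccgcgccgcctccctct
S100A11, chr1:152037005-152037254, minus strand: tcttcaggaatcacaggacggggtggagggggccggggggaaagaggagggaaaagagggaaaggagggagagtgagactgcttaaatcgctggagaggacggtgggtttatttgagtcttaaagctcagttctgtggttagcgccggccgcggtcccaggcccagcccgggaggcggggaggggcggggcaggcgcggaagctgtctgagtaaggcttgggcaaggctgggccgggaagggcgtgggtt
In these stretches S100A4 held 1 retinoid half-site at position -24 from the start, and S100A3 held 1 AP-1 site at position -225. The stretches of S100A10 and S100A11 held none of the 3 motifs. G and C made up 71.7% and 65.3% of the full 300-base window of these genes.

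RefSeq windows of 300 bases (250 before and 50 after a start) were found for all 9 members, 13 windows in all, and were searched on both strands. The full cAMP response element, TGACGTCA, was in 0 of the 13 member windows and in 1.85% of all 35116 windows. Its half-site TGACG, which is contained in the full element, was in 2 member windows (S100A6 and S100A13) and in 24.6% of all windows. The AP-1 site was in 2 member windows (S100A2 and S100A3) and in 7.71% of all, and AGGTCA was in 1 (S100A4) and in 13.8% of all. The direct repeat of AGGTCA with 5 bases between, the classical arrangement for retinoic acid receptors, was in 0 member windows and in 2 windows of all. A match describes letters in a window and nothing more.

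S100A4, also called metastasin or fibroblast-specific protein, binds non-muscle myosin heavy chain and promotes cell motility. Its brighter probe gave raw signals of 1200, 1303 and 946 on the tRA/cAMP arrays, against 4074, 2697 and 3327 on the CNTRL arrays. The normalised signals were 9.95, 10.00 and 9.87 in tRA/cAMP cells and 11.71, 11.37 and 11.60 in CNTRL cells. The groups therefore did not overlap on either scale, and the smallest CNTRL value stood well above the largest tRA/cAMP value. The mean was 9.94 ± 0.07 in tRA/cAMP cells and 11.56 ± 0.17 in CNTRL cells (SD, n = 3 each), a difference of -1.62 (standard error 0.13), or 3.07-fold lower. Among the 9944 genes tested it had the 13th lowest difference.

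The second S100A4 probe gave the same picture. It read 9.12, 8.999 and 9.48 in tRA/cAMP cells and 11.14, 11.01 and 11.36 in CNTRL cells, a difference of -1.97 (standard error 0.16), or 3.93-fold lower. Both probes were detected on all 6 arrays, so S100A4 RNA was still measured in treated cells. With the background left in, the 2 probes were 2.72-fold and 3.17-fold lower. In all 15 alternative settings, given with the other limits at the end, S100A4 remained past the threshold. These settings reuse the arrays whose signals were known when the members were chosen. For S100A4 and the members below they describe only how a value depends on processing.

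S100A10, known as p11, forms a tetramer with annexin A2 that carries channels and receptors to the plasma membrane and binds plasminogen at the cell surface. Its brightest probe gave raw signals of 24304, 25639 and 23073 in tRA/cAMP cells, against 45901, 38556 and 36626 in CNTRL cells. After normalisation the values were 14.57, 14.57 and 14.65 in tRA/cAMP cells and 15.31, 15.27 and 15.15 in CNTRL cells. The 2 groups did not overlap, and each was tight, with an SD of 0.05 in tRA/cAMP cells and 0.08 in CNTRL cells (n = 3 each). The difference was -0.65 (standard error 0.11), or 1.57-fold lower, and the second probe differed by -0.60, or 1.51-fold lower. In 6 of the 15 alternatives S100A10 was not past the threshold: with arrays left unnormalised, when every probe was kept whatever its detection, and on leaving out CNTRL replicate 1 or 2 or tRA/cAMP replicate 1 or 2. Its difference lay between -0.73 and -0.62 in all 15.

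S100A11, or calgizzarin, binds annexin A1 and takes part in membrane repair and in growth control of epithelial cells. It read 10.76, 11.04 and 11.32 in tRA/cAMP cells and 11.65, 11.45 and 11.57 in CNTRL cells. All tRA/cAMP arrays lay below all CNTRL arrays, but the tRA/cAMP arrays were spread widely and the highest came close to the lowest CNTRL array. The difference was -0.52 (standard error 0.15), or 1.43-fold lower, and did not pass the threshold over all genes. It passed in 1 of the 15 alternatives, the fit with a variance trend and robust estimation.

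**Figure D2:**
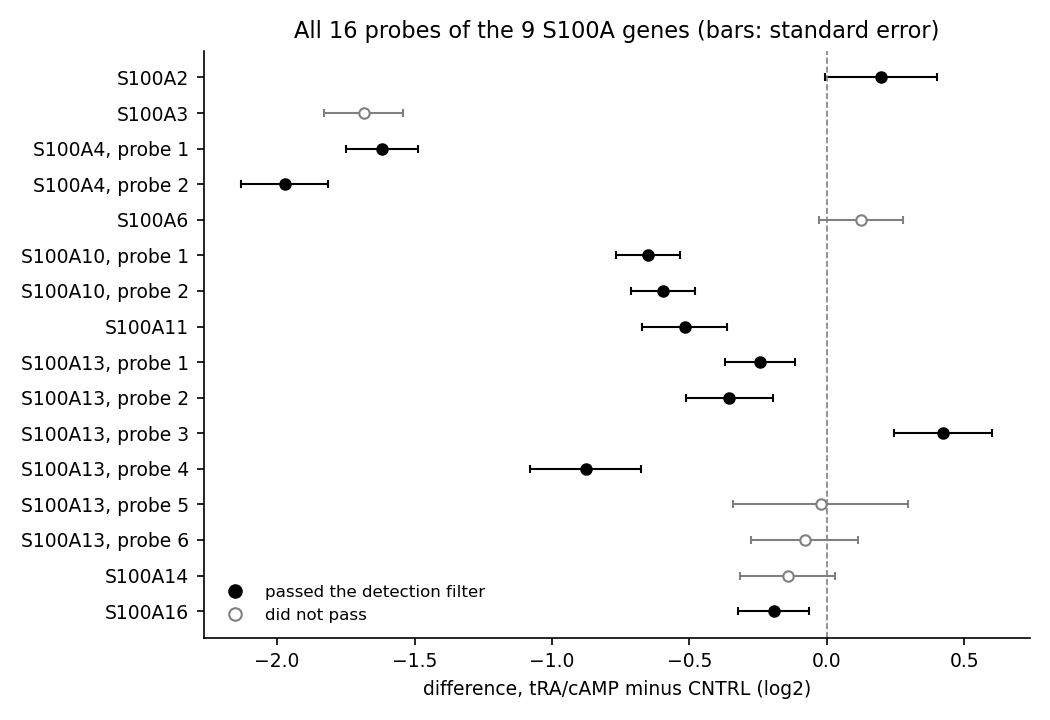
Difference between the groups (tRA/cAMP minus CNTRL, log2) for each of the 16 probes of the 9 S100A genes, with the standard error from the probe-level fit; filled points passed the detection filter and probes of a gene are numbered from the brightest. Both S100A4 probes lie at -1.62 and -1.97, both S100A10 probes near -0.6, and the S100A13 probes on both sides of 0. S100A3 and the fourth S100A13 probe were detected on 0 tRA/cAMP arrays, so their points rest on signals below detection.

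S100A13 is needed for the non-classical release of FGF1 and of interleukin 1 alpha from cells. It is the member with the most probes, 6, annotated to 5 transcripts, and these did not move as one. The brightest probe read 11.64, 11.56 and 11.74 in tRA/cAMP cells and 12.04, 11.75 and 11.89 in CNTRL cells, a difference of -0.24 (standard error 0.13). The highest tRA/cAMP array, at 11.743, fell just short of the lowest CNTRL array, at 11.748, so the groups are barely separate. The second probe differed by -0.35 (standard error 0.16), with overlapping groups.

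The third S100A13 probe went the other way. It was detected on all arrays and read 8.96, 8.93 and 9.18 in tRA/cAMP cells and 8.31, 8.996 and 8.50 in CNTRL cells, a difference of 0.42 (standard error 0.18) with overlapping groups. The fourth was detected on all 3 CNTRL arrays (7.76 to 8.01) and on 0 tRA/cAMP arrays (6.66 to 7.47), so that only a bound on the means can be given. The CNTRL mean was 1.20-fold above the mean, over the 3 tRA/cAMP arrays, of the lowest detected signal on each. This bound carries no error, and the lowest CNTRL array (7.76) was no higher than the lowest detected signal of tRA/cAMP replicate 3 (7.76). The fifth probe was detected on 1 CNTRL array only, and the sixth on none. The differences of the 3 probes detected on all 6 arrays thus ranged from -0.35 to 0.42, and the value given for S100A13 as a gene is that of its brightest probe.

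S100A16, a member found in many tissues and linked to adipocyte differentiation, read 11.07, 10.94 and 11.26 in tRA/cAMP cells and 11.33, 11.32 and 11.19 in CNTRL cells. The groups overlapped, and the difference of -0.19 (standard error 0.13) was not past the threshold. S100A2, a p53 target of basal epithelial cells, was the 1 tested member with a positive difference. It read 8.003, 7.49 and 8.19 in tRA/cAMP cells and 7.98, 7.40 and 7.73 in CNTRL cells. Its raw signals, 392 to 459 in tRA/cAMP cells and 360 to 508 in CNTRL cells, lay close to the detection limit of each array, the groups overlapped, and the difference was 0.20 (standard error 0.20).

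S100A3, a zinc-rich protein known from the hair cuticle, was not tested because its probe was detected on 2 of the 3 CNTRL arrays and on 0 of the 3 tRA/cAMP arrays. Its raw signals were 230, 248 and 194 in tRA/cAMP cells, against 422, 358 and 411 in CNTRL cells. The groups did not overlap, and the normalised means were 5.82 ± 0.21 in tRA/cAMP cells and 7.50 ± 0.14 in CNTRL cells (SD, n = 3 each). No fold is given, since the CNTRL mean did not exceed the mean over the 3 tRA/cAMP arrays of the lowest detected signal on each.

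S100A6, or calcyclin, a partner of the ubiquitin-ligase adaptor CACYBP, was not detected on any array by its 1 probe, at raw signals of 216 to 233 in tRA/cAMP cells and 182 to 240 in CNTRL cells. S100A14, a member of epithelial cells, was not detected either, at 220 to 263 in tRA/cAMP cells and 235 to 276 in CNTRL cells. Both ranges lie under the lowest detected signal of every array. A single silent probe does not show that a transcript is absent.

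Of the other S100 family genes, 13 were looked up and all had a probe, and 10 of them were detected on no array: S100A5, S100A7, S100A7A, S100A8, S100A9, S100A12, S100B, S100G, S100P and S100Z. S100A7L2, annotated as a pseudogene, was detected on 1 tRA/cAMP array and 2 CNTRL arrays by 1 of its 2 probes. S100A1, a regulator of calcium cycling in muscle, and S100PBP, which encodes a nuclear protein that binds S100P, were tested, and limma called neither; 0 of the 2 had an unadjusted p under 0.05. S100A1 read 7.64, 7.61 and 7.92 in tRA/cAMP cells and 8.58, 7.50 and 8.68 in CNTRL cells. CNTRL replicate 2 thus stood with the tRA/cAMP arrays and apart from its own group, and without it the difference went to -0.91 against -0.53 with it (limma, adjusted p = 0.018 without it; 0.29 to 0.69 in the 13 other alternatives that gave a value). S100A1 was detected on 2 of the 3 tRA/cAMP arrays, at raw signals of 381 to 409 over the 3, so its difference rests in part on a signal below detection. With the background left in, the S100A1 difference was -0.32. S100PBP differed by 0.00 (95% confidence interval of the difference -0.29 to 0.30). Of 7 genes of the fused type, which join S100 domains to long repeats and include FLG, the filaggrin of skin, 0 passed the filter and 5 were detected on no array.

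Chromosome order sets the members beside their neighbours. From S100A9 to S100A1 the RefSeq gene table of GRCh38 lists 23 entries, of which 14 are protein-coding S100 genes. S100A10 and S100A11 lie outside this run, on the same chromosome. At one end of the run the S100A9, S100A12, S100A8, S100A7A and S100A7 genes, followed by S100A6 and S100A5, were silent on these arrays. Then come S100A4 (-1.62) and S100A3, which was not tested, with 1 non-coding RNA entry between them. Next to S100A3 lies S100A2 (0.20), then S100A16 (-0.19), the undetected S100A14, S100A13 (-0.24) and S100A1 (-0.53). Beyond the run, CHTOP, SNAPIN and ILF2 differed by 0.10, 0.16 and -0.12 and limma called none of them (adjusted p = 0.78, 0.75 and 0.73; over all alternatives 0.63 to 1.00), nor did any have an unadjusted p under 0.05. In the run and its flanks S100A4 was the 1 called gene of the 8 tested, where 2.56% of all genes tested were called. S100A4 was chosen with this contrast known, so nothing is read from this count.

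**Figure D3:**
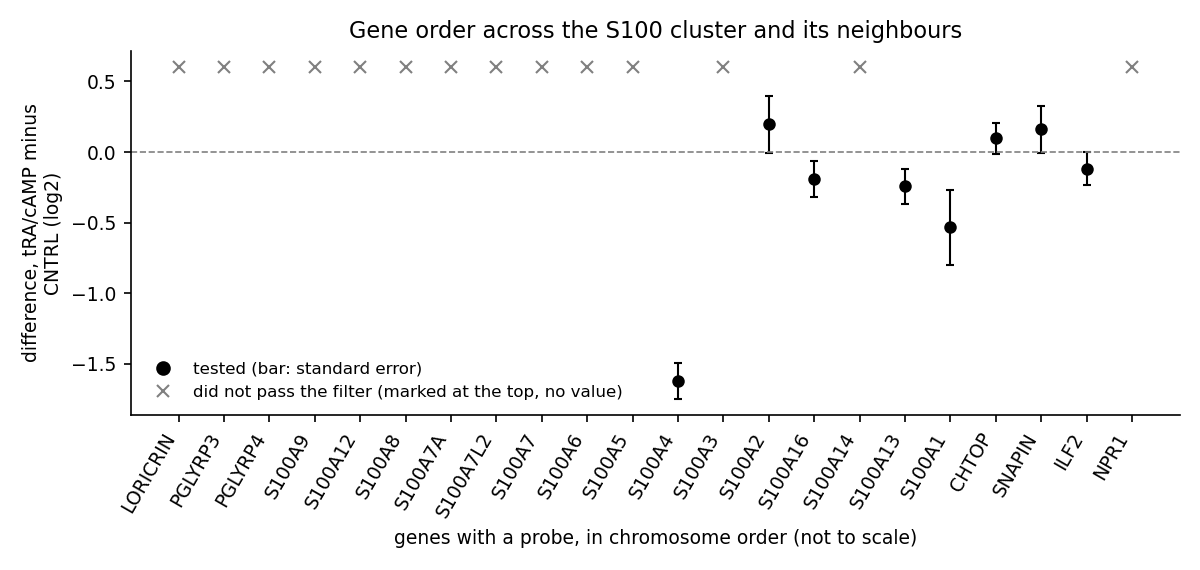
Difference between the groups (tRA/cAMP minus CNTRL, log2, with standard error) for the genes with a probe from LORICRIN to NPR1, in chromosome order and not to distance; crosses at the top mark genes that did not pass the filter and have no value. S100A4 stands at -1.62, and the other tested genes lie between -0.53 and 0.20.

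The partners through which S100 proteins act were not among the 9 members, and their tests are from the fit over all genes. Of 116 listed genes (other S100 genes, fused-type genes, annexins and p11 partners, intracellular targets, receptors and other EF-hand genes) 63 were tested, 0 rose and 3 fell (4.76%, where 1.46% of all genes tested fell). Their median log2 difference was -0.04. The 3 were ANXA1, AHNAK and TNNC1, and the count was 5 with a variance trend and robust fit, which added EFHD1 and ALCAM. AHNAK lost its call in 9 of 15 alternatives, and TNNC1 was detected on 1 of the 3 tRA/cAMP arrays. The lists were chosen with earlier results of these data known, so nothing is read from the share that fell.

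Among the annexins and p11 partners 9 of 16 were tested, 2 fell and 0 rose (median -0.04). ANXA1, the phospholipid-binding partner of S100A11, read 12.45, 12.20 and 12.26 in tRA/cAMP cells and 13.90, 13.90 and 13.86 in CNTRL cells. The groups stood far apart, with a difference of -1.58 (standard error 0.12; limma, adjusted p = 5.8e-05), or 3.00-fold lower. ANXA2, the partner of S100A10 and named for that reason, read 14.77, 14.92 and 14.68 in tRA/cAMP cells and 14.72, 14.83 and 14.87 in CNTRL cells. Its difference was -0.02 with a 95% confidence interval of -0.28 to 0.25 (limma, adjusted p = 0.97; 0.63 to 0.99 over the alternatives), and its other 2 probes differed by -0.29 and -0.14 with overlapping groups. The difference between ANXA2 and S100A10 was not tested.

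AHNAK, a giant scaffold protein that docks on the S100A10 and annexin A2 complex, read 11.95, 12.17 and 12.19 in tRA/cAMP cells and 12.82, 12.70 and 12.77 in CNTRL cells. It fell by 0.66 on the log2 scale (standard error 0.12; limma, adjusted p = 0.017), or 1.58-fold lower. This call was lost in 9 of 15 alternatives (adjusted p = 0.051 to 0.073 there, in limma), the replicate block (adjusted p = 0.053) among them, and its 2 dimmer probes differed by -0.50 and 0.10 with overlapping groups. ANXA11, a partner of S100A6, ANXA5, ANXA6 and PLAT, which encodes tissue plasminogen activator, differed by 0.38, -0.07, -0.35 and 0.36, and limma called none of these (adjusted p = 0.25 to 0.89).

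None of the 17 tested intracellular targets of S100 proteins was called by limma, and 4 had an unadjusted p under 0.05 (median -0.07). These 4 were all lower: TPM1 and TPM2, which encode tropomyosins, MYH9, the heavy chain of non-muscle myosin that S100A4 binds, and SYT1, a synaptotagmin found in the FGF1 release complex with S100A13. They differed by -0.36, -0.30, -0.35 and -0.33 (limma, adjusted p = 0.18 to 0.32). The share of all genes with such an unadjusted p is not given here, so nothing is read from the 4. The groups of TPM2 overlapped, and the second probes of TPM1 and TPM2 differed by -0.13 and -0.22 with overlapping groups. MYH9 read 13.27, 13.44 and 13.15 in tRA/cAMP cells and 13.67, 13.52 and 13.72 in CNTRL cells, and its second probe differed by -0.44, the normalised groups not overlapping for either probe. CACYBP, the S100A6 partner, differed by 0.05 (standard error 0.15). FGF1 and IL1A, the cargo of S100A13, were detected on no array.

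Of 8 listed receptors, AGER, TLR4, CD36 and IL10RA were detected on no array. The 4 tested were ALCAM, EGFR, BSG and ERBB2, at -0.49, -0.35, 0.18 and -0.02, and limma called none (adjusted p = 0.14 to 0.96; 1 had an unadjusted p under 0.05). Of 31 other EF-hand genes tested 1 fell and 0 rose (median -0.03). It was TNNC1, the calcium sensor of cardiac and slow muscle troponin, at 7.02, 7.55 and 6.91 in tRA/cAMP cells and 8.99, 8.71 and 9.16 in CNTRL cells (limma, adjusted p = 5.6e-04). TNNC1 was detected on 1 of the 3 tRA/cAMP arrays, so its fitted difference of -1.79 rests in part on signals below detection, and with the background left in it was 2.02-fold lower. EFHD1, CAPN1, NCS1 and SPARC differed by -0.41, -0.38, -0.33 and -0.35, none called by limma (adjusted p = 0.12 to 0.24).

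**Figure D4:**
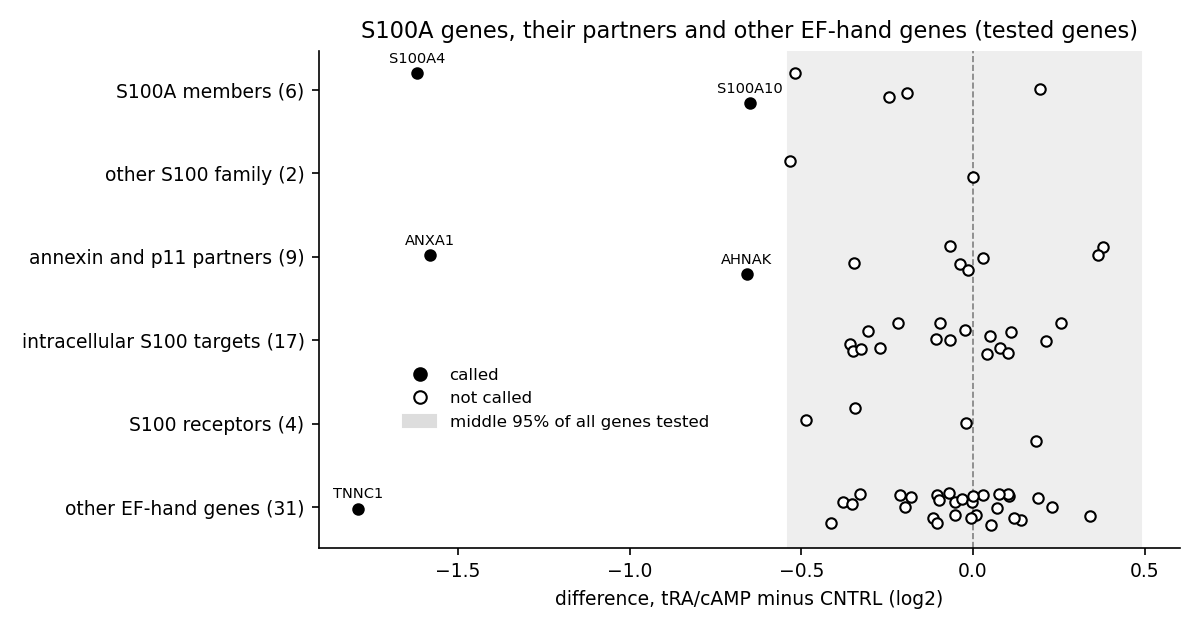
Difference between the groups (tRA/cAMP minus CNTRL, log2) of each tested gene, by list, with the number tested in parentheses; filled points are called (adjusted p under 0.05) and the grey band holds the middle 95% of all genes tested, -0.54 to 0.49. ANXA1 (-1.58) lies near S100A4 (-1.62), TNNC1 (-1.79) moves to -1.01 with the background left in (ANXA1 to -1.55 and S100A4 to -1.44), and most partners lie in the band; the S100A members were chosen with these values known. Vertical scatter within a list is for legibility only.

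The profile of S100A4 over the 6 arrays was set beside that of every other gene tested, by the Euclidean distance between log2 values centred on each gene's mean. The 5 nearest of 9944 genes were KLRC3, a receptor of natural killer cells (distance 0.34), ANXA1 (0.34), LUM, the collagen-binding proteoglycan lumican (0.36), IFI27, an interferon-inducible gene (0.45), and FOLR1, a folate receptor (0.46). This is a likeness over 6 arrays of 2 groups, fixed mainly by the size of the group difference, which was -1.60 for KLRC3, -1.56 for LUM, -1.78 for IFI27 and -1.29 for FOLR1. KLRC3 was detected on 0 tRA/cAMP arrays, LUM on 1 and IFI27 on 2, while ANXA1 and FOLR1 were detected on all 6. The distances and ranks of KLRC3, LUM and IFI27 therefore depend partly on undetected signals. Without background correction the differences were -0.72 for KLRC3, -0.93 for LUM, -1.19 for IFI27, -1.55 for ANXA1 and -1.07 for FOLR1, against -1.44 for S100A4. S100A6 had no tested probe and so no such neighbours.

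Because S100A4 is widely used as a fibroblast marker and S100A2 and S100A14 are epithelial, markers of other cell types were measured beside them. Of 13 fibroblast markers, S100A4 not among them, 7 were tested, 3 fell (COL3A1, LUM and TAGLN) and 0 rose, and 6 (COL1A2, DCN, THY1, PDGFRB, POSTN and FAP) were detected on no array. Of all genes tested 1.46% fell. The marker lists were chosen with earlier results of these data known, so nothing is read from this count or from the squamous count below. The summed signal of the 13 fibroblast markers, background-corrected, quantile normalised and on the linear scale, was lower in all tRA/cAMP arrays. It was 27934 to 29173 in tRA/cAMP cells and 35937 to 41768 in CNTRL cells. Of the other 4 tested, none was called by limma: ACTA2 differed by -0.34, FBLN1 by -0.29, COL1A1 by -0.15 and PDGFRA by 0.11, the last changing sign in 2 alternatives and COL1A1 in 1. The sum depends most on the brightest genes. Among the 7 tested these were ACTA2 and FBLN1, with CNTRL means of 14.28 and 13.51 on the log2 scale. COL3A1 followed at 12.24, and LUM and TAGLN were dimmer. The sum therefore does not show a fall of the fibroblast markers as a set. The part of these markers in the lower S100A4 signal was not tested. Of 13 squamous markers 4 were tested, LAMB3 and SFN fell (SFN was called in 5 of its 14 alternatives) and 0 rose, and the basal keratins KRT5 and KRT14 were detected on no array. The other tested squamous markers, PERP (-0.27) and DSC3 (0.06), were detected on all 6 arrays. Their groups overlapped and limma called neither (adjusted p = 0.38 and 0.88). LAMB3, SFN and the fibroblast marker TAGLN were detected on 0 tRA/cAMP arrays, so their differences rest on signals below detection. Over their alternatives these differences were -1.35 to -0.62 for LAMB3, -0.79 to -0.33 for SFN and -1.28 to -0.57 for TAGLN. The summed signal of the squamous markers was 4641 to 4840 in tRA/cAMP cells and 5148 to 5582 in CNTRL cells. This sum also depends most on its brightest genes. Among the 4 tested these were PERP and DSC3, with CNTRL means of 11.30 and 11.04, against 8.41 for LAMB3 and 7.97 for SFN. The sum therefore does not show a fall of the squamous markers as a set. Of 10 monocyte and blood cell markers 2 were tested, limma called 0 of them and 0 had an unadjusted p under 0.05, and PTPRC and LYZ were detected on no array. Their sums overlapped, at 1403 to 1887 in tRA/cAMP cells and 1362 to 1900 in CNTRL cells.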

How the data were processed

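Sample titles gave the groups and replicate numbers. Per probe and array, the deposited intensity is an average bead signal from the authors' BeadStudio export, a tool named in the submitters' processing notes without a version, on a linear scale and not normalised between arrays. The deposited detection p-value of each probe and array was read as its rank among 759 negative controls, per the file headers and its steps. A second deposited intensity table, with the same distribution in each column, was used as an alternative only.

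Signals were background-corrected and quantile normalised by neqc (limma 3.58.1, R 4.3.3, offset 16). In the platform annotation 28098 of 48803 probes carried 1 gene name, 13 several and 20692 none; 14923 passed the filter, giving 9944 genes. Groups were compared with lmFit and eBayes over the 6 arrays with no covariate, p-values being adjusted by Benjamini-Hochberg over all genes tested. The fit was also run on simulated data with independent noise for each gene and array. Such data cannot address chip position, shared cultures or signals near detection, so nothing is concluded from that run. Standard errors of single probes come from a fit with the probes that did not pass the filter added. Precision is limited by having 3 arrays per group. The members, gene lists and the naming rule (all members and S100 genes, called list genes and up to 4 others per list, chromosome neighbours and the 5 profiles nearest to S100A4) were chosen with earlier results of these data known, and single tested markers were named after their values were seen. Same-numbered samples of the groups did not deviate together (correlations 0.04, -0.04 and -0.04). With 3 arrays per group this cannot show whether the numbers pair them, and the labels do not say. Figures used matplotlib 3.10.9 (Python 3.11.15). Protein and probe sequences were not used here.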

Additional observations from a re-analysis of the deposited data

How the results depend on the processing

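Alternatives covered background correction, normalisation between arrays, the authors' table, the filter, several probes per gene, the variance model, replicate numbers as a block, and leaving out each array. Over all genes 110 were higher and 145 lower. With no normalisation 43 were higher (26.4% of calls, against 43.1%, with a median shift of -0.10 on the log2 scale), with no filter 53 were higher and 78 lower, and with detection on all 6 arrays 89 were lower. Without single arrays 52 to 83 were higher and 85 to 113 lower, with the counts moved by over 1.5 times without CNTRL replicate 1 or 2 or tRA/cAMP replicate 1 or 2. Members called lower numbered 1 in place of 2 without normalisation and without CNTRL replicate 1 or tRA/cAMP replicate 1 or 2, S100A4 alone; with no filter and without CNTRL replicate 2 the 2 called were S100A4 and S100A3, not S100A10, where S100A3 is set against tRA/cAMP signals below detection. S100A4 differed by -1.44 with no background correction and in the authors' table and by -1.80 with the mean of probes, and S100A10 by -0.73 without normalisation. Partner and EF-hand genes called lower numbered 5 with a variance trend and robust fit. With the replicate block, a fit on numbers that may not pair the samples, 2 members and 2 partner genes were called lower, AHNAK being lost. Values near 0 changed sign in some settings, none of them called: S100PBP was -0.11 without normalisation and -0.0024 with median scaling, CHTOP -0.0017 and PDGFRA -0.027 without normalisation, and without single arrays S100PBP was -0.089 to 0.086, ANXA2 -0.082 to 0.041, ERBB2 -0.082 to 0.044, ANXA5 -0.18 to 0.052, COL1A1 -0.31 to 0.0044, PDGFRA -0.0063 to 0.28 and SNAPIN -0.026 to 0.26. Signals near background limit S100A1, S100A2, S100A3 and the dimmer S100A13 probes.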
